A study of Mus musculus with 16 samples.

Results

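The 8 libraries described here come from papain-injected footpad epidermis of mice on 2 diets, 4 libraries for each diet, out of 16 libraries in the series. They were chosen by their labels alone, as the AhR-poor diet (labelled SYNTH) with papain (libraries T104, T105, T107 and T112) and the I3C diet with papain (T106, T113, T114 and T115). All mice were C57/B6J females that had received a purified diet from 5 wk of age for 3 wk. On the AhR-poor diet this diet was given without addition, and on the I3C diet it was given with 200 ppm of indole-3-carbinol (I3C). Each footpad was injected with 50 µl of PBS that held 50 µg of papain, and epidermal cells were isolated 6 hr later with dispase, a protease that parts epidermis from dermis. The other 8 libraries, 4 for each diet, received PBS without papain (vehicle) and served as the comparison. All groups thus shared the purified base diet, the strain, the sex and an injection. Mice of one diet were housed together and were not randomized, so diet and cage cannot be told apart.

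I3C is a compound of cruciferous vegetables whose acid condensation products bind the aryl hydrocarbon receptor (AhR), a ligand-activated transcription factor. In skin the receptor is present in keratinocytes, Langerhans cells and other cell types, and its bound form induces xenobiotic enzymes of the cytochrome P450 family 1. Papain is a plant cysteine protease used as a model allergen, and an injury of the epidermis by such a protease is known to be followed by release of alarmins, chemokines and arrival of leukocytes. Levels are given as CPM, which scale the counts of a library to a common total, here with TMM factors. For single genes, values are listed in the order T104, T105, T107, T112 for the AhR-poor diet and T106, T113, T114, T115 for the I3C diet. Folds compare the AhR-poor with the I3C diet, and a gene was called higher or lower at an adjusted p below 0.01 with a log2 fold change beyond 1.

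Library totals of the 8 papain libraries ran from 22500821 to 51844375 counts, and a count of 3, used as the floor, equalled 0.0569 to 0.130 CPM. A floor of this kind covers counting error only, while the SE given below come from the fit, which includes the spread between libraries. Keratinocyte markers were present in every library: Krt5, the basal keratin, stood at 9433, 8997, 7574 and 9230.3 CPM on the AhR-poor diet and 8903, 9029.6, 8529.7 and 8491 CPM on the I3C diet. The libraries of a diet were not alike. Among the 1583 genes called higher with papain, which are 7.15% of all genes tested, T105 was the highest of its group in 1067 genes (67.4%) and T112 the lowest in 1190 (75.2%), where over the 12992 genes with a mean of at least 1 CPM these shares were 30.6% and 23.5%. On the I3C diet, T106 was the highest of its group in 1124 of the 1583 genes (71%), against 28.8% of the 12992. T106 was thus the I3C library nearest to the AhR-poor group for most of these genes, and T112 the AhR-poor library nearest to the I3C group. Without T106, 1781 genes were called higher and 34 lower, and without T112 the counts were 1673 and 18, against 1583 and 22 (0.0993% of all genes tested) with all libraries.

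Of the 22155 genes tested, the 1583 called higher had a median level of 1.46 CPM over the 8 libraries and a median log2 fold change of 3.05, and in 341 of them all I3C libraries held 3 counts or fewer. Without the minimum fold, 680 genes were lower at an adjusted p below 0.01, which is 3.07% of all genes tested, with a median level of 87.2 CPM and a median log2 fold change of -0.43. Among the 2138 genes with a mean of at least 100.0 CPM, 288 (13.5%) were lower without a minimum fold and 10 (0.468%) were called higher. Over the 22155 genes, the median was 0.01 on that scale, close to 0. The groups did not overlap in 1502 of the 1583 genes, nor in 661 of the 680. Over all 22155 genes tested, every AhR-poor library lay above every I3C library in 2778 genes and below in 2728. Both sets were chosen by a test of the same libraries, which favours groups that do not overlap.

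**Figure D1:**
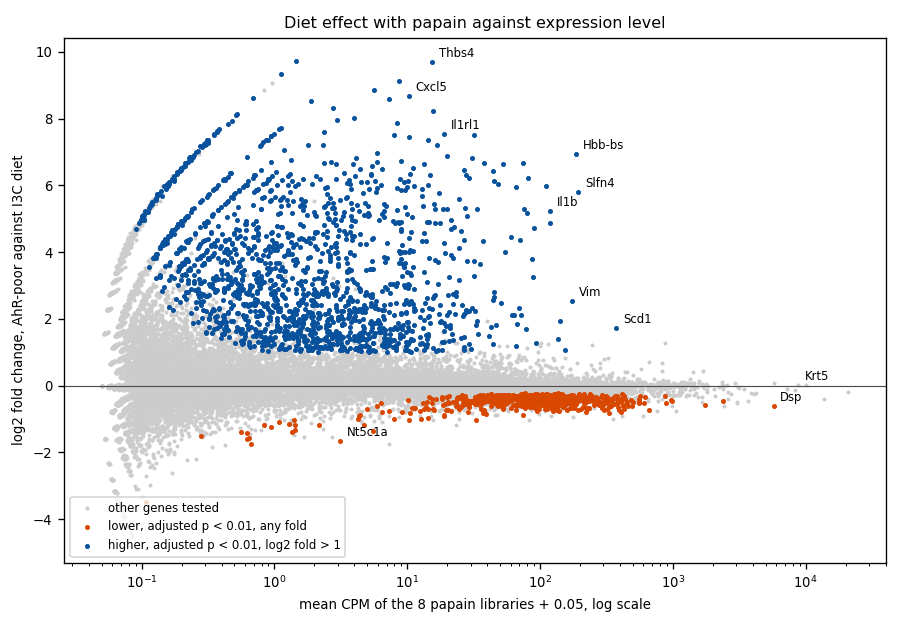
Log2 fold change between the diets with papain, positive where the AhR-poor diet was higher (vertical axis), against the mean CPM of the 8 papain libraries plus 0.05 (horizontal axis, log scale), 1 point for each of 22155 genes. The 1583 genes called higher (blue) lie mostly at low and middle levels with folds up to the top of the axis, while the 680 genes lower without a minimum fold (orange) lie mostly near 100.0 CPM and within 1 log2 unit of 0.

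The genes called higher with the highest levels came from different cell types. Slfn4, a Schlafen gene of activated myeloid cells, stood at 415, 783, 253 and 75.5 CPM on the AhR-poor diet and 22.2, 3.3, 0.542 and 1.14 CPM on the I3C diet (log2 fold change 5.79 ± 0.99 (SE), adjusted p = 0.00117). T112 was the lowest of the AhR-poor libraries and T106 the highest of the I3C libraries, and the groups did not overlap. Vim, the intermediate filament of mesenchymal cells and leukocytes, stood at 293, 417, 296 and 188 CPM on the AhR-poor diet and 88.2, 51.2, 41 and 26.5 CPM on the I3C diet (log2 fold change 2.53 ± 0.35 (SE), adjusted p = 0.000163). B2m, the light chain of MHC class I, was at 209, 281, 192 and 147 CPM against 102.1, 83.5, 111.7 and 100.5 CPM (log2 fold change 1.06 ± 0.18 (SE), adjusted p = 0.000733). Its fold passed the minimum by little and fell under it without T105 or T113 (log2 fold change 0.86 to 0.99). Scd1, the desaturase that makes monounsaturated fatty acids, is described with the lipid genes, and the beta globin Hbb-bs with the blood genes. In the fit of only the 8 papain libraries, Slfn4 was not called (adjusted p = 0.0217).

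The AhR and its target genes were considered first, since the diets were built to differ in ligands of the receptor. Of 11 genes of the pathway, 2 were called higher and none lower, and the median log2 fold change of the list was 0.20. These were Cyp1a1 and Cyp1b1, the P450 enzymes that the bound receptor is known to induce. Cyp1a1 stood at 1.8, 1.54, 1.17 and 2.18 CPM on the AhR-poor diet and 0.244, 0.192, 0.0571 and 0.448 CPM on the I3C diet (log2 fold change 2.79 ± 0.52 (SE), adjusted p = 0.000919). The groups did not overlap, and T114 of the I3C diet was under the floor. With vehicle, Cyp1a1 was at 1.06, 2.09, 0.668 and 1.05 CPM on the AhR-poor diet and 0.66, 1.81, 2.64 and 0.84 CPM on the I3C diet (log2 fold change -0.30 ± 0.44 (SE), adjusted p = 0.879), and the test of the difference between papain and vehicle gave an adjusted p of 0.065. Cyp1b1 stood at 5.22, 3.72, 3.2 and 6.42 CPM on the AhR-poor diet and 2.39, 1.15, 1.91 and 1.17 CPM on the I3C diet (log2 fold change 1.48 ± 0.29 (SE), adjusted p = 0.0011). The receptor itself, Ahr, was at 62.3, 52.8, 55.6 and 51.4 CPM against 59.6, 46.9, 50.2 and 48.5 CPM (log2 fold change 0.11 ± 0.14 (SE), adjusted p = 0.629), with overlapping groups. Neither Ahrr, the repressor of the receptor (log2 fold change 0.47 ± 0.33 (SE), adjusted p = 0.368), nor Tiparp, a target that limits its activity (log2 fold change -0.13 ± 0.18 (SE), adjusted p = 0.701), passed the test. Nqo1, a quinone reductase shared with the NRF2 pathway, was at 31, 33.5, 22.3 and 38.2 CPM against 27.7, 47.6, 45.6 and 36.8 CPM (log2 fold change -0.33 ± 0.20 (SE), adjusted p = 0.286).

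The promoter of Cyp1a1 is printed here because this gene is the reference target of the receptor, and the GCGTG core of the AhR binding element is in capitals. It is the RefSeq window of 250 bases before the start, build GRCm38.p6, chr9:57697363-57697612, plus strand, 5′ to 3′.
Cyp1a1: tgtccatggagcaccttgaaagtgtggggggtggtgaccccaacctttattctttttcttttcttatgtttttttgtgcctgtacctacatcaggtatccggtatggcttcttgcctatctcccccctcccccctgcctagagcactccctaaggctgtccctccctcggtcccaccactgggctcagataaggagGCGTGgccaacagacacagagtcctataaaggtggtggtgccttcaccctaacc
Over both strands the core was found 1 time, starting at position -54 from the start. Windows were matched for 13664 of the 22155 genes tested, and 45% of them held GCGTG on either strand. Of the genes called higher, 1134 had a window and 28.9% held the core, with a median GC content of 54.4%. Of the 680 genes lower without a minimum fold, 525 had a window and 56.8% held it, with a median GC content of 63.2%, while over all windows that median was 58.8%. The shares moved with base composition, whose part was not tested.

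The keratinocyte genes were then examined, as these cells make up most of the epidermis. Of 8 basal markers, none was called in either direction (edgeR), with 5 at an unadjusted p below 0.05 (4 lower and 1 higher), and DESeq2 also called none. Without a minimum fold, 2 were lower and 1 was higher at an adjusted p below 0.01, and the median log2 fold change was -0.31. Krt14, the partner of Krt5, was at 11136, 9554, 8939 and 10714 CPM on the AhR-poor diet and 9594, 10682, 9828 and 9511 CPM on the I3C diet (log2 fold change 0.03 ± 0.12 (SE), adjusted p = 0.916). Of 9 suprabasal genes, 2 were called higher. Krt1 (log2 fold change 0.08 ± 0.16 (SE), adjusted p = 0.803) and Krt10 (log2 fold change -0.21 ± 0.19 (SE), adjusted p = 0.508), the keratins of the spinous layer, did not pass the test. Krt77 was at 87.1, 165, 161 and 55.6 CPM against 50.3, 24.9, 17.7 and 16 CPM (log2 fold change 2.10 ± 0.44 (SE), adjusted p = 0.00451), a call that was lost without T105, T107, T113, T114 or T115 (adjusted p from 0.0138 to 0.0187). Krt9, a keratin of palms and soles, was at 1.01, 11.5, 2.6 and 10.8 CPM against 0.317, 0.321, 0.257 and 0.348 CPM (log2 fold change 4.38 ± 0.83 (SE), adjusted p = 0.00199). Its AhR-poor libraries were spread widely, with T105 and T112 at the top, and all lay above the I3C libraries. Stress keratins are made by wounded or activated keratinocytes, and none of 4 was called by edgeR or DESeq2, nor did any reach an unadjusted p of 0.05. Krt6a stood at 1946, 1459, 2765 and 1576 CPM on the AhR-poor diet and 1704, 4750.4, 2724 and 2654 CPM on the I3C diet (log2 fold change -0.61 ± 0.36 (SE), adjusted p = 0.269) and Krt16 at 2135, 2111, 3295 and 2454 CPM against 2354, 4487, 3966 and 3449.7 CPM (log2 fold change -0.51 ± 0.27 (SE), adjusted p = 0.219). In vehicle libraries the means of Krt6a, whose reads could be split with its near-identical copy Krt6b, were 129 and 116 CPM on the AhR-poor and I3C diets, below every papain library.

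Among genes of the cornified envelope and desquamation, none of 18 was called by edgeR or DESeq2, and 5 were higher at an unadjusted p below 0.05. The median log2 fold change of the list was 0.46. Lor, the main protein of the cornified envelope, was at 59.1, 48.8, 85.7 and 119.6 CPM against 69.4, 19.4, 18 and 29 CPM (log2 fold change 1.20 ± 0.51 (SE), adjusted p = 0.125). Flg, the precursor of natural moisturizing factors, was at 7.24, 5.16, 13.9 and 21.7 CPM against 16.1, 5.96, 2.43 and 5.6 CPM (log2 fold change 0.65 ± 0.65 (SE), adjusted p = 0.548). For both, T106 was the highest I3C library and lay within the AhR-poor range. None of 8 tight junction genes was called by edgeR or DESeq2, with 1 at an unadjusted p below 0.05, and the median log2 fold change was 0.05.

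Genes that anchor keratinocytes were examined next. In the list of 10 basement membrane and hemidesmosome genes, 7 were lower at an unadjusted p below 0.05, 2 at an adjusted p below 0.01 without a minimum fold, and none was called with it by edgeR or DESeq2. The median log2 fold change was -0.43. Lama3, a chain of the laminin that anchors basal cells, stood at 172, 176, 168 and 169.5 CPM on the AhR-poor diet and 206, 328, 266 and 288 CPM on the I3C diet (log2 fold change -0.67 ± 0.17 (SE), adjusted p = 0.00942). The groups did not overlap. Col17a1, the hemidesmosomal collagen, was at 3128, 3110.2, 2835 and 3326 CPM against 3577, 4557, 4487 and 4443 CPM (log2 fold change -0.46 ± 0.15 (SE), adjusted p = 0.0327). Itgb4, its integrin partner, was at 781, 699, 599.7 and 754 CPM against 725, 1085, 990.3 and 984 CPM (log2 fold change -0.42 ± 0.12 (SE), adjusted p = 0.0152). Dsp, the desmosomal plaque protein and the highest in level of the 680 genes, was at 3503, 5092, 4630.4 and 4874 CPM against 6618, 6528, 6845 and 7899 CPM (log2 fold change -0.62 ± 0.14 (SE), adjusted p = 0.00359). The desmosomal cadherin Dsc3 was at 1179, 1488, 1444 and 1505 CPM against 1909, 2046, 2112 and 2312 CPM (log2 fold change -0.58 ± 0.14 (SE), adjusted p = 0.00736). T104 was the lowest AhR-poor library for both. Aqp3, the water and glycerol channel of basal cells, was at 1974, 1869.8, 1987 and 2117 CPM against 2268, 3113, 2933 and 2751 CPM (log2 fold change -0.48 ± 0.09 (SE), adjusted p = 0.00122). For Dsp, Dsc3 and Aqp3 all AhR-poor libraries lay below all I3C libraries, with folds under the minimum. Eif4g1, a scaffold of translation initiation (log2 fold change -0.47 ± 0.10 (SE), adjusted p = 0.00319), and Myh9, the non-muscle myosin heavy chain (log2 fold change -0.44 ± 0.11 (SE), adjusted p = 0.00738), completed the 5 highest of the 680. Over the 680 genes, T106 was the lowest I3C library in 567 (83.4%).

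Growth factor signals to keratinocytes followed with small differences. None of 10 genes of the EGFR ligand and ErbB receptor list was called by edgeR or DESeq2, 5 reached an unadjusted p below 0.05, and 2 were lower at an adjusted p below 0.01 without a minimum fold. Egfr, the receptor, was at 145, 141, 155 and 152 CPM against 181, 231, 231 and 236 CPM (log2 fold change -0.57 ± 0.10 (SE), adjusted p = 0.000352), with groups that did not overlap. Its ligand Areg was at 30.6, 29.2, 33.2 and 21.6 CPM against 21.6, 35.4, 25 and 23.5 CPM (log2 fold change 0.12 ± 0.19 (SE), adjusted p = 0.743) and its ligand Hbegf at 185, 178, 214 and 152 CPM against 174, 192, 186 and 178 CPM (log2 fold change -0.004 ± 0.21 (SE), adjusted p = 0.994). Both ligands overlapped between the diets.

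The lipid genes Scd1 and Elovl6 were among the most expressed genes called higher. Of 18 cholesterol and fatty acid synthesis genes, 1 was called higher, and of 17 barrier lipid genes, 2 were called higher, while the medians of the lists were -0.27 and -0.17. At an unadjusted p below 0.05, 9 of the 18 were lower and 2 higher, and 5 of the 17 were lower and 3 higher. Of the 18, 2 were lower at an adjusted p below 0.01 without a minimum fold. Scd1 stood at 643, 542, 487 and 643 CPM on the AhR-poor diet and 233, 144, 146 and 171 CPM on the I3C diet (log2 fold change 1.74 ± 0.21 (SE), adjusted p = 2.73e-05). Elovl6, the elongase that acts on the same fatty acids, was at 226, 240.2, 186 and 248 CPM against 77.1, 47, 47.7 and 61.3 CPM (log2 fold change 1.95 ± 0.22 (SE), adjusted p = 1.72e-05). Elovl3, an elongase of sebaceous and hair follicle lipids, was at 17, 10.5, 11.4 and 13.4 CPM against 1.71, 0.385, 0.97 and 0.547 CPM (log2 fold change 3.83 ± 0.50 (SE), adjusted p = 8.03e-05). The groups did not overlap for the 3 genes, and T106 was again the highest I3C library. These genes were called with vehicle as well: Scd1 gave log2 fold change 1.51 ± 0.20 (SE), adjusted p = 0.000552, Elovl6 log2 fold change 2.05 ± 0.22 (SE), adjusted p = 0.00011 and Elovl3 log2 fold change 2.78 ± 0.46 (SE), adjusted p = 0.00299. For none of the 3 did the difference between papain and vehicle pass its test (adjusted p from 0.515 to 0.924).

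**Figure D2:**
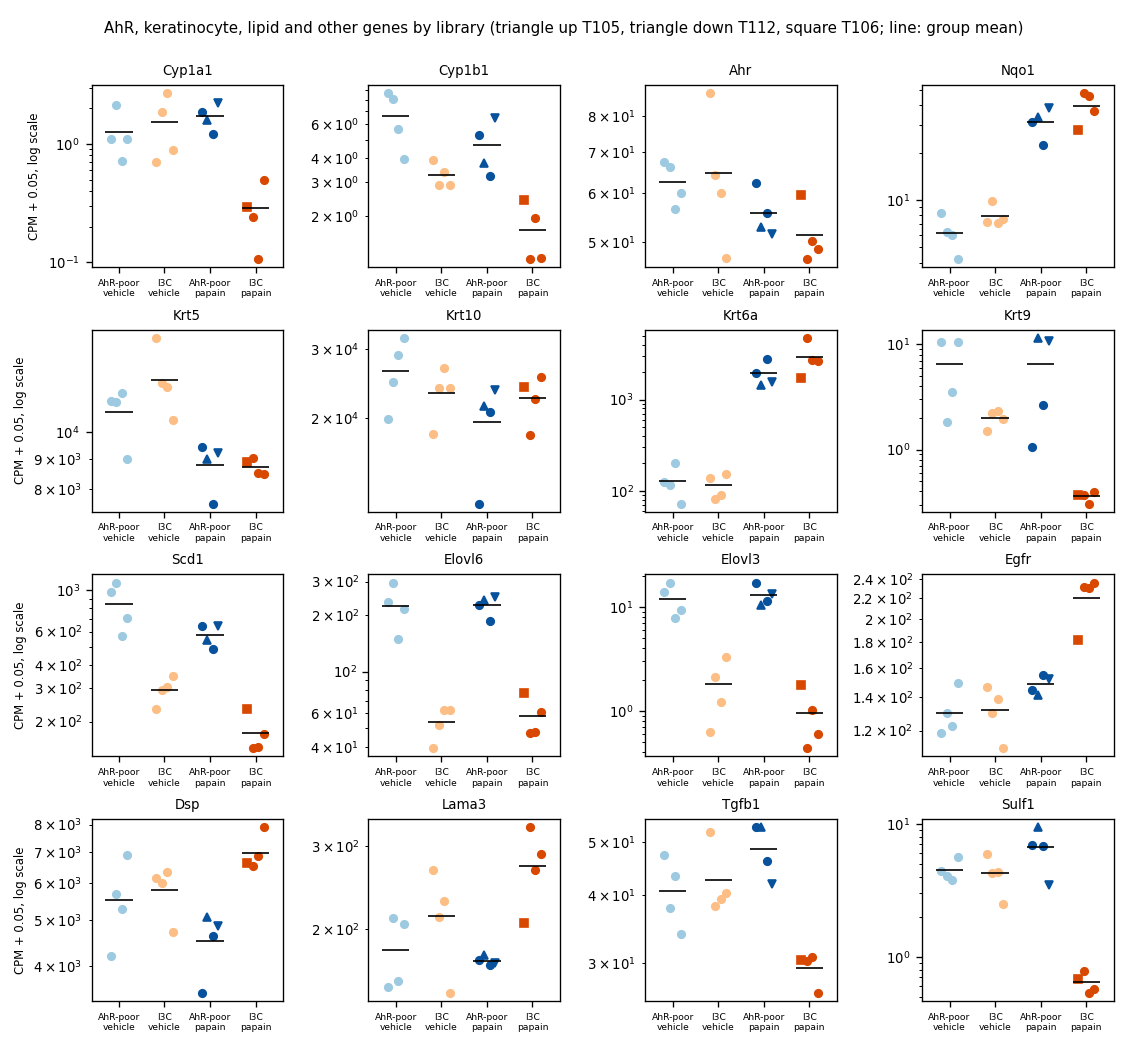
CPM plus 0.05 of 16 genes in each of the 16 libraries (vertical axis, log scale), by diet and injection (horizontal axis), with a line at the mean of each group of 4. Scd1, Elovl6 and Elovl3 were higher in AhR-poor libraries with either injection, Cyp1a1 and Sulf1 separated by diet with papain, and Krt5, Krt10, Ahr and Nqo1 overlapped between the diets.

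Inflammatory signals come after the keratinocyte genes. Neutrophil-attracting CXC chemokines act on the receptor Cxcr2, and 6 of 6 were called higher, with a median log2 fold change of 5.69 (4.66 with genes at the floor set to their bound). Several of them lie near each other on chromosome 5 and are shown here with their promoters, because they were higher together in the same libraries. By the annotation of GRCm38, they are protein-coding genes on the plus strand at chr5:90891241-90893115 (Cxcl1), chr5:90903871-90905938 (Cxcl2) and chr5:90786103-90789600 (Cxcl3), and Cxcl5 at chr5:90759360-90761624. The windows below are RefSeq sequences of 250 bases before the start, GRCm38.p6, plus strand, 5′ to 3′. Capitals mark matches on either strand to an NF-kB motif, GGGNN followed directly by TTTCC, and to the GCGTG core.
Cxcl1, chr5:90890995-90891244: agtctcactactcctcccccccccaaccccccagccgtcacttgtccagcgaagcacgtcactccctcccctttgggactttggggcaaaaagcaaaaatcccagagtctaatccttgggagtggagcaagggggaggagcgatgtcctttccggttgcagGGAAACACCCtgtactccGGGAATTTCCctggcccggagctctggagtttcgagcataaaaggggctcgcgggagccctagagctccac
Cxcl2, chr5:90903649-90903898: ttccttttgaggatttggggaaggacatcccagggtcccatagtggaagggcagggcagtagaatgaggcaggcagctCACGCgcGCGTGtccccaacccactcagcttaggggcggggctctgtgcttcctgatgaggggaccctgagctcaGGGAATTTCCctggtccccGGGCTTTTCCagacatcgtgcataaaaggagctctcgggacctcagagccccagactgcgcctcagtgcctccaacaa
Cxcl3, chr5:90785851-90786100: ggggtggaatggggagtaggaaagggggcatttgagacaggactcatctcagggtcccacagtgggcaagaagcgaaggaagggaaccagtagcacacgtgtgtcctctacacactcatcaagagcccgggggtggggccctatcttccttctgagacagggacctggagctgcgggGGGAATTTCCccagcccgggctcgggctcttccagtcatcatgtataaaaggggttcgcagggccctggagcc
The NF-kB motif was found at positions -89 and -71 in Cxcl1, at -97 and -78 in Cxcl2 and at -73 in Cxcl3. The GCGTG core was found 2 times in Cxcl2, the first at position -172, and did not overlap the other motif. The NF-kB motif stood in 1.79% of all windows, in 2.47% of those of genes called higher and in 0.762% of those of genes lower without a minimum fold.

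Cxcl1 stood at 138, 153, 146 and 92.5 CPM on the AhR-poor diet and 48.7, 53.5, 58.4 and 56.1 CPM on the I3C diet (log2 fold change 1.29 ± 0.22 (SE), adjusted p = 0.00063). The vehicle means were 63.6 and 53.9 CPM, AhR-poor diet first, and the I3C papain libraries lay on either side of the latter. Cxcl2 stood at 168, 283, 148 and 52.6 CPM on the AhR-poor diet and 15.6, 11.4, 10.1 and 9.6 CPM on the I3C diet (log2 fold change 3.80 ± 0.45 (SE), adjusted p = 5.01e-05). For Cxcl3 the values were 18.8, 28.7, 18 and 5.28 CPM against 0.658, 0.289, 0.0571 and 0.174 CPM (log2 fold change 5.86 ± 0.58 (SE), adjusted p = 6.99e-06), and for Cxcl5 they were 15.9, 30.4, 26.4 and 9.16 CPM against 0.146, 0.0321, 0 and 0 CPM (log2 fold change 8.66 ± 0.61 (SE), adjusted p = 2.16e-07). In all 4 genes T112 was the lowest and T105 the highest AhR-poor library, and no library overlapped between diets. Of the other CXC and CX3C chemokines, 1 of 8 was called higher by edgeR and 3 of 8 by DESeq2. Both tools called Cxcl12, a stromal chemokine that binds Cxcr4, at 23.7, 26.3, 25.3 and 21.1 CPM against 7.14, 3.72, 4.14 and 4.1 CPM (log2 fold change 2.33 ± 0.27 (SE), adjusted p = 1.72e-05). Cxcl10, induced by interferons, was at 21.9, 29.6, 21.9 and 15.6 CPM against 11.8, 12.3, 9.79 and 10.5 CPM (log2 fold change 1.004 ± 0.28 (SE), adjusted p = 0.0176), with groups that did not overlap. It missed the threshold of edgeR and was called by DESeq2.

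CC chemokines attract monocytes, eosinophils and T cells, and 12 of 18 were higher, with a median log2 fold change of 3.73 (3.12 with genes at the floor set to their bound) against 0.01 over all genes. Ccl2, the ligand of Ccr2 on monocytes, stood at 40.8, 50.8, 38.2 and 19 CPM on the AhR-poor diet and 4.58, 10.9, 6.59 and 5.62 CPM on the I3C diet (log2 fold change 2.43 ± 0.50 (SE), adjusted p = 0.00376), a call that was lost without T104, T105, T114 or T115 (adjusted p from 0.0118 to 0.0178). Ccl7, which shares that receptor, was at 21.5, 32, 17.7 and 11.5 CPM against 1.1, 1.76, 1.66 and 0.647 CPM (log2 fold change 4.02 ± 0.54 (SE), adjusted p = 0.000113). Ccl4, a chemokine of activated macrophages, was at 13.6, 28.5, 7.83 and 3.45 CPM against 0.804, 0.257, 0.114 and 0.0746 CPM (log2 fold change 5.37 ± 0.72 (SE), adjusted p = 0.000103). Ccl11, the eosinophil chemokine eotaxin, was at 5.81, 6.2, 6.58 and 2.94 CPM on the AhR-poor diet and at 0.0487, 0, 0 and 0 CPM on the I3C diet, where all libraries were at the floor, and was at least 65.3-fold higher (adjusted p = 2.00e-07). Neither Ccl20 nor Ccl22 passed the test. Ccl20, the ligand of Ccr6, was at 54.7, 30.5, 36.8 and 36.7 CPM against 31, 31.2, 24.1 and 30.4 CPM (log2 fold change 0.44 ± 0.30 (SE), adjusted p = 0.342). Ccl22, a ligand of Ccr4, was at 31.4, 9.92, 28.3 and 17.3 CPM against 11.9, 15.8, 19.2 and 5.97 CPM (log2 fold change 0.71 ± 0.43 (SE), adjusted p = 0.281).

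Of 15 genes of the interleukin-1 family and its receptors, 6 were higher. Il1b, the cytokine released by inflammasome activity, stood at 223, 431, 219.9 and 59.7 CPM on the AhR-poor diet and 15, 4.68, 2.94 and 2.01 CPM on the I3C diet (log2 fold change 5.23 ± 0.69 (SE), adjusted p = 0.000136). T112 was the lowest AhR-poor library, T106 the highest I3C library, and the groups did not overlap. Its antagonist Il1rn was at 107.9, 176, 83.5 and 49.6 CPM against 42.9, 25.6, 20.3 and 27 CPM (log2 fold change 1.85 ± 0.33 (SE), adjusted p = 0.00145) and the decoy receptor Il1r2 at 116, 174, 119 and 54.2 CPM against 38.5, 15.8, 23.6 and 14.9 CPM (log2 fold change 2.32 ± 0.34 (SE), adjusted p = 0.000284). Both missed the threshold in the fit of the 8 papain libraries (adjusted p = 0.0198 and 0.0112). Il1rl1, which encodes the receptor of IL-33 found on mast cells and type 2 lymphocytes, was at 33.7, 53.2, 47 and 15.9 CPM against 0.317, 0.257, 0.2 and 0.0249 CPM (log2 fold change 7.55 ± 0.49 (SE), adjusted p = 2.08e-07). Its ligand Il33 was at 22, 21.9, 29.5 and 23.3 CPM against 15, 32.9, 22.3 and 23.4 CPM (log2 fold change 0.04 ± 0.26 (SE), adjusted p = 0.938). The keratinocyte cytokine Il1a was at 18.1, 32.9, 20.6 and 7.86 CPM against 7.26, 12.7, 7.11 and 8.6 CPM (log2 fold change 1.16 ± 0.48 (SE), adjusted p = 0.109) and Il1f6, which encodes IL-36 alpha, at 0.246, 0.322, 0.519 and 0.598 CPM against 0.39, 0.321, 0.114 and 0.174 CPM (log2 fold change 0.71 ± 0.56 (SE), adjusted p = 0.416), both with overlapping groups.

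Epithelial alarmins start type 2 responses, and of 12 genes of the alarmin and type 2 cytokine list, 1 was higher, Il13ra2, the decoy receptor of IL-13, at 2.41, 2.12, 0.909 and 1.39 CPM against 0.438, 0.321, 0.343 and 0.323 CPM (log2 fold change 2.27 ± 0.35 (SE), adjusted p = 0.00013). Tslp stood at 9.41, 6.94, 8.7 and 9.16 CPM on the AhR-poor diet and 8.5, 6.54, 9.76 and 8.58 CPM on the I3C diet (log2 fold change 0.03 ± 0.25 (SE), adjusted p = 0.956), above the vehicle means of 2.53 and 2.61 CPM on both diets. Il25 was at the floor in both groups, and Il4 was at 0.0739, 0.285, 0.0433 and 0.0816 CPM against 0.0244, 0, 0 and 0 CPM (adjusted p = 0.0139). Il13, a cytokine of type 2 lymphocytes, was at 2.46, 2.52, 2.08 and 1.58 CPM against 2.09, 0.898, 0.542 and 0.622 CPM (log2 fold change 1.05 ± 0.33 (SE), adjusted p = 0.0288) and overlapped through T106.

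In the interleukin-6 and oncostatin M family, 3 of 10 genes were higher. Osm, a cytokine of myeloid cells that acts on keratinocytes, stood at 15.8, 30.9, 12.8 and 5.66 CPM on the AhR-poor diet and 0.658, 0.128, 0.171 and 0.0746 CPM on the I3C diet (log2 fold change 5.92 ± 0.59 (SE), adjusted p = 6.99e-06). Il6 was at 7.17, 13.2, 10.2 and 5.17 CPM against 3.24, 2.21, 2.25 and 1.94 CPM (log2 fold change 1.89 ± 0.41 (SE), adjusted p = 0.0045), a call that was lost without T105, T107, T113, T114 or T115 (adjusted p from 0.0113 to 0.0196). Lif was at 4.68, 7.78, 4.46 and 2.96 CPM against 2.19, 1.57, 1.66 and 2.59 CPM (log2 fold change 1.31 ± 0.25 (SE), adjusted p = 0.000769), with a log2 fold change of 0.99 without T105. The oncostatin receptor Osmr was at 92.1, 77.9, 79.5 and 74.5 CPM against 82.9, 105.3, 106.2 and 101.98 CPM (log2 fold change -0.29 ± 0.12 (SE), adjusted p = 0.112). Of 10 myeloid growth factor and receptor genes, 7 were higher. Csf3, which mobilizes neutrophils, was at 4.83, 8.04, 3.51 and 1.58 CPM against 0.122, 0.0962, 0.114 and 0.0995 CPM (log2 fold change 5.34 ± 0.54 (SE), adjusted p = 2.41e-06). Csf2 was at 1.97, 1.57, 1.6 and 0.489 CPM against 0.731, 0.0641, 0.228 and 0.274 CPM (log2 fold change 2.06 ± 0.50 (SE), adjusted p = 0.00642), with overlapping groups and a call that was lost without T104, T105, T107, T113, T114 or T115 (adjusted p from 0.0155 to 0.0261). The ligands of Csf1r did not pass the test: Csf1 was at 85.5, 96.3, 83.2 and 69.5 CPM against 56.6, 53.9, 83.4 and 74.9 CPM (log2 fold change 0.32 ± 0.12 (SE), adjusted p = 0.0803). Il34, made by keratinocytes, was at 28.9, 44.6, 45.1 and 43.9 CPM against 56.4, 38.2, 32.5 and 36 CPM (log2 fold change -0.01 ± 0.15 (SE), adjusted p = 0.982). None of 12 genes of the IL-17, IL-20 and IL-23 axis was called by edgeR or DESeq2, with 2 at an unadjusted p below 0.05. Its member Il24 was at 33.6, 14.9, 16.5 and 15.6 CPM against 10.1, 25.5, 13.6 and 14.4 CPM (log2 fold change 0.35 ± 0.36 (SE), adjusted p = 0.567).

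**Figure D3:**
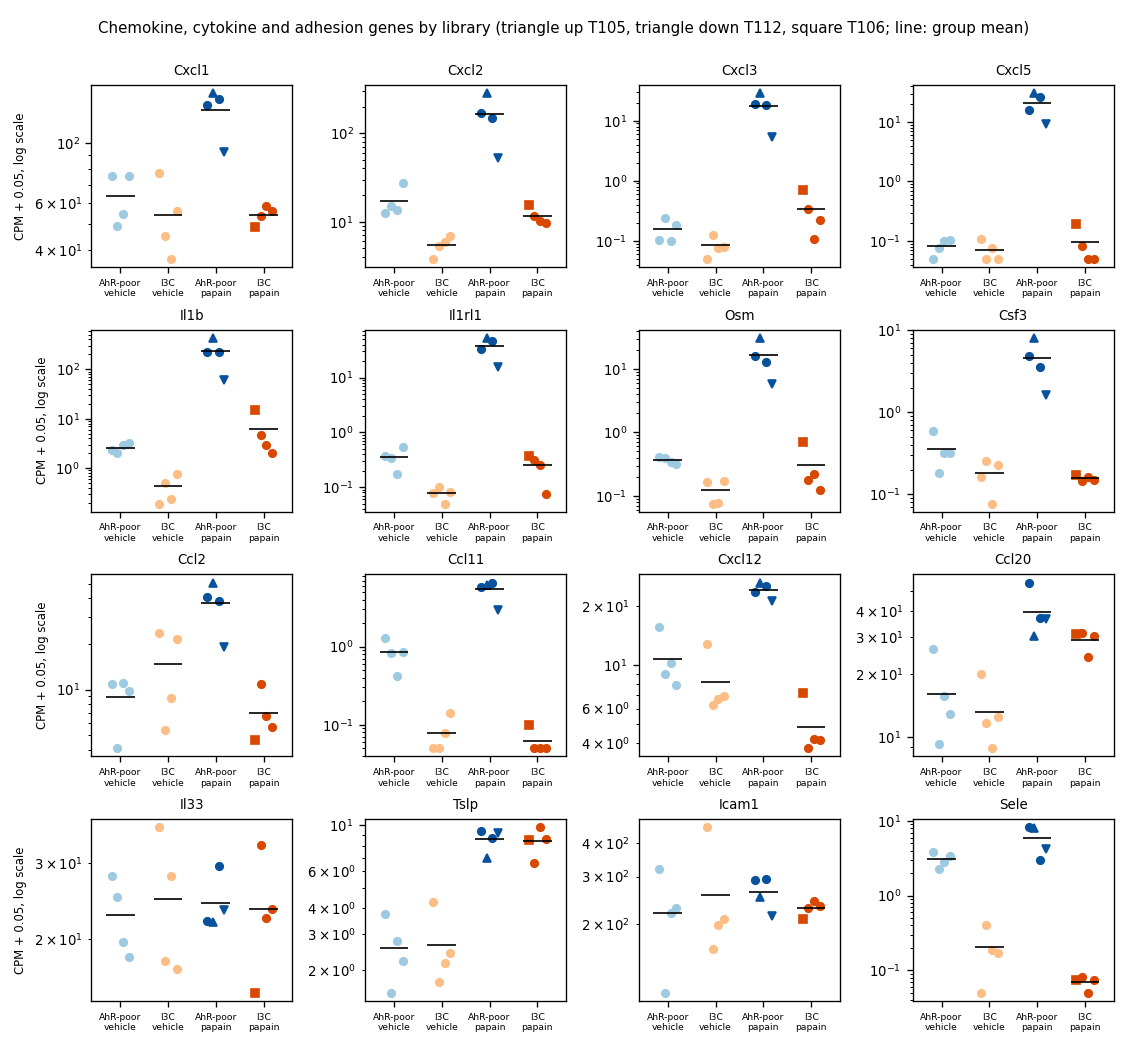
CPM plus 0.05 of 16 chemokine, cytokine and adhesion genes in each of the 16 libraries (vertical axis, log scale), by diet and injection (horizontal axis), with a line at the mean of each group of 4. The 4 papain libraries of the AhR-poor diet stand above those of the I3C diet for Cxcl1, Cxcl2, Cxcl3, Cxcl5, Il1b, Il1rl1, Osm, Csf3, Ccl2, Ccl11, Cxcl12 and Sele, while Ccl20, Il33, Tslp and Icam1 overlap.

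Interferon-stimulated genes, which encode antiviral proteins, were also measured. Of 19, 8 were higher by edgeR and 10 by DESeq2, with a median log2 fold change of 1.26. Ifit1 stood at 29.9, 47.2, 14.6 and 5.63 CPM on the AhR-poor diet and 2.24, 0.417, 1.66 and 0.497 CPM on the I3C diet (log2 fold change 4.32 ± 0.71 (SE), adjusted p = 0.00073) and Rsad2 at 47.3, 86.6, 21.8 and 8.73 CPM against 3.22, 0.545, 0.942 and 0.497 CPM (log2 fold change 4.95 ± 0.74 (SE), adjusted p = 0.000349). T105 was the highest and T112 the lowest AhR-poor library for both, and neither gene was called in the fit of the 8 papain libraries (adjusted p = 0.0114 and 0.012). Isg15, a ubiquitin-like protein, was at 34.1, 50.7, 19.6 and 9.79 CPM against 7.16, 3.08, 13.3 and 6.24 CPM (log2 fold change 1.94 ± 0.45 (SE), adjusted p = 0.00783), with T112 within the I3C range. Its call was lost in 13 of 16 fits that left out 1 library (adjusted p from 0.0101 to 0.0295). Complement genes were higher in 11 of 15, among them C3, the central component, at 44.3, 72.3, 51.6 and 22.8 CPM against 2.17, 0.77, 0.371 and 0.572 CPM (log2 fold change 5.59 ± 0.47 (SE), adjusted p = 2.42e-06). Of 15 prostaglandin and leukotriene genes, 7 were higher. Ptgis, the prostacyclin synthase of vessels and fibroblasts, was at 13.8, 21.1, 15.7 and 7.12 CPM against 0.0244, 0.128, 0 and 0 CPM (log2 fold change 8.59 ± 0.65 (SE), adjusted p = 2.74e-07). Alox5ap, which serves leukotriene synthesis in leukocytes, was at 15.1, 25.9, 17.5 and 8.84 CPM against 3.75, 1.7, 1.94 and 0.92 CPM (log2 fold change 3.01 ± 0.39 (SE), adjusted p = 6.75e-05). The inducible cyclooxygenase Ptgs2 was at 119, 230.3, 133 and 85.9 CPM against 76, 117, 93.1 and 101.4 CPM (log2 fold change 0.56 ± 0.36 (SE), adjusted p = 0.322), with overlapping groups. Hmox1, the heme oxygenase, was the 1 gene called of 10 NRF2 targets, at 50.7, 97.3, 64.2 and 31.9 CPM against 18, 23.5, 25.5 and 20.4 CPM (log2 fold change 1.48 ± 0.28 (SE), adjusted p = 0.00183), and was not called in the fit of the 8 papain libraries (adjusted p = 0.0157).

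Markers of leukocytes moved with these signals. In bulk libraries, fewer cells of a type and less RNA per cell cannot be told apart. Neutrophil markers were higher in 9 of 14 tested, with the granule genes Elane and Mpo of immature neutrophils under the count minimum, and their summed level ran from 103.4 to 703 CPM on the AhR-poor diet and from 51 to 93 CPM on the I3C diet, with T112 at the bottom of the AhR-poor range. S100a9, a subunit of calprotectin, was at 169, 272, 170.0 and 31 CPM against 14.4, 24.2, 18.4 and 10.8 CPM (log2 fold change 3.25 ± 0.51 (SE), adjusted p = 0.000527), and was not called in the fit of the 8 papain libraries (adjusted p = 0.0139). S100a8, the other subunit, was at 64.7, 102.1, 75 and 12.1 CPM against 9.65, 30.3, 18 and 8.43 CPM (log2 fold change 1.94 ± 0.54 (SE), adjusted p = 0.0223). It was not called by edgeR, with T112 within the I3C range, and was called by DESeq2. Csf3r, the receptor of Csf3, was at 55.6, 107.04, 56.8 and 11.9 CPM against 2.29, 0.513, 0.0285 and 0.124 CPM (log2 fold change 6.23 ± 0.83 (SE), adjusted p = 0.000154). Ly6g, the defining surface marker, was at 2.07, 2.43, 2.51 and 0.218 CPM on the AhR-poor diet and at 0 in all I3C libraries, which made it at least 21.9-fold higher without passing the threshold (adjusted p = 0.0111). Cxcr2, the receptor of the CXC chemokines above, was at 30.9, 42.3, 40.3 and 23.6 CPM against 22.9, 19.3, 29.5 and 25.2 CPM (log2 fold change 0.50 ± 0.23 (SE), adjusted p = 0.143). It was above its vehicle means of 1.15 and 0.705 CPM on both diets.

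Monocyte and macrophage markers were higher in 15 of 16, with a summed level from 148 to 636 CPM on the AhR-poor diet and from 17.1 to 51.3 CPM on the I3C diet. Lyz2, lysozyme, stood at 59, 138, 75.2 and 27.5 CPM on the AhR-poor diet and 2.02, 0.609, 0.114 and 0.124 CPM on the I3C diet (log2 fold change 6.65 ± 0.72 (SE), adjusted p = 2.95e-05). Adgre1, which encodes F4/80, was at 3.94, 6.98, 5.02 and 3.32 CPM against 1.41, 0.609, 0.428 and 0.323 CPM (log2 fold change 2.78 ± 0.36 (SE), adjusted p = 2.96e-05). Csf1r, also made by Langerhans cells, was at 28.9, 41.7, 33.2 and 25.5 CPM against 19.6, 11.7, 7.85 and 5.25 CPM (log2 fold change 1.54 ± 0.33 (SE), adjusted p = 0.00473), and this call was lost without T104, T105, T107, T113, T114 or T115 (adjusted p from 0.0101 to 0.0205). Mast cell markers were higher in 8 of 9, with a summed level from 33.4 to 273 CPM on the AhR-poor diet and from 1.94 to 9.43 CPM on the I3C diet. Hdc, which makes histamine and is also made by other myeloid cells, was at 130.0, 250.2, 117 and 25.2 CPM against 5.92, 1.41, 0.257 and 0.671 CPM (log2 fold change 5.94 ± 0.80 (SE), adjusted p = 0.000163). The mast cell protease Mcpt4 was at 5.2, 7.04, 4.03 and 1.69 CPM against 0.0974, 0, 0 and 0 CPM (log2 fold change 7.22 ± 0.83 (SE), adjusted p = 1.29e-05). Cpa3, a carboxypeptidase of mast cells and basophils, was at 1.03, 1.14, 1.08 and 0.489 CPM on the AhR-poor diet and at 0 in all I3C libraries (at least 11.4-fold higher, adjusted p = 0.000153). Leukocyte integrins were higher in 6 of 8, with the shared beta chain Itgb2 at 27, 50.2, 29.4 and 13.7 CPM against 4.19, 2.18, 1.43 and 1.12 CPM (log2 fold change 3.75 ± 0.40 (SE), adjusted p = 1.62e-05).

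Markers of immune cells resident in the epidermis depended on the tool. Of 10 Langerhans cell markers, 1 was called higher by edgeR and 7 by DESeq2, and 9 were higher at an unadjusted p below 0.05. The gene called by edgeR was Itgax, at 8.42, 10.5, 7.88 and 5.98 CPM against 4.99, 2.5, 1.6 and 0.821 CPM (log2 fold change 1.72 ± 0.38 (SE), adjusted p = 0.00443), a call that was lost without T104, T105, T107, T113 or T114 (adjusted p from 0.0105 to 0.0196). The summed level of the list ran from 1047 to 1309 CPM on the AhR-poor diet and from 405 to 889.7 CPM on the I3C diet, with T106 the highest of the I3C libraries. Cd207, which encodes langerin, stood at 38.4, 33.4, 37 and 26 CPM on the AhR-poor diet and 26, 10.01, 13.2 and 6.54 CPM on the I3C diet (log2 fold change 1.27 ± 0.34 (SE), adjusted p = 0.0185). Cd74, the invariant chain of MHC class II, was at 385, 332, 358 and 308 CPM against 237, 136, 142 and 82.7 CPM (log2 fold change 1.21 ± 0.30 (SE), adjusted p = 0.0106). H2-Aa, an MHC class II chain, was at 157, 141, 141 and 117 CPM against 103.8, 55.2, 56.4 and 31.9 CPM (log2 fold change 1.17 ± 0.31 (SE), adjusted p = 0.0166). For these 3 genes the groups did not overlap and the adjusted p of edgeR missed the threshold, which it passed without T106. DESeq2 called all 3 higher with every library included. With vehicle, Cd207 had means of 55.2 and 17.9 CPM (log2 fold change 1.62 ± 0.34 (SE), adjusted p = 0.0174). Of 10 T cell markers, 10 were higher at an unadjusted p below 0.05, 4 were called by DESeq2 and 1 by edgeR. The latter was Cd3d, at 2.09, 2.52, 1.99 and 0.761 CPM against 1.02, 0.417, 0.599 and 0.497 CPM (log2 fold change 1.52 ± 0.38 (SE), adjusted p = 0.00777), with T112 within the I3C range. This call was lost without T102, T104, T105, T107, T113, T114 or T115 (adjusted p from 0.0105 to 0.0309). Cd3e was at 5.96, 8.35, 7.05 and 2.86 CPM against 5.26, 2.44, 1.51 and 1.32 CPM (log2 fold change 1.20 ± 0.41 (SE), adjusted p = 0.0502).

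Matrix genes of the dermis were a further group. Fibrillar collagens were higher in 7 of 10, with a median log2 fold change of 3.997 (3.28 with genes at the floor set to their bound), and other collagens in 7 of 11, with a median of 2.26. Col3a1 stood at 106.5, 139, 119 and 51.5 CPM on the AhR-poor diet and 2.14, 1.38, 0.143 and 0.448 CPM on the I3C diet (log2 fold change 6.64 ± 0.54 (SE), adjusted p = 2.52e-06). Small leucine-rich proteoglycans, which coat collagen fibrils, were higher in 9 of 11, led in level by Dcn at 156, 200.2, 196 and 90.1 CPM against 3.65, 3.08, 1.06 and 0.796 CPM (log2 fold change 6.23 ± 0.47 (SE), adjusted p = 1.36e-06). Elastic fibre genes were higher in 9 of 16. Fbn1, the microfibril protein, was at 38.8, 57.5, 44.9 and 16.3 CPM against 0.512, 0.706, 0.0285 and 0.124 CPM (log2 fold change 6.87 ± 0.64 (SE), adjusted p = 7.37e-06). Mfap5, its partner, was at 15.4, 24.6, 22.4 and 6.09 CPM against I3C libraries at the floor (at least 208-fold higher, adjusted p = 6.33e-07). Lox, which crosslinks collagen and elastin, was at 8.45, 11.9, 19.9 and 4.05 CPM, with I3C libraries at the floor (at least 134-fold higher, adjusted p = 1.70e-07). T107 was the highest library for Lox and T105 for the other 4 genes, while T112 was the lowest for all 5.

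Matricellular proteins, which signal from the matrix without building it, were higher in 9 of 17. Thbs4, a thrombospondin of tendon and stroma, was at 29.2, 20.7, 54.2 and 18.8 CPM, with I3C libraries at the floor (at least 373-fold higher, adjusted p = 8.87e-07). Ccn2, a connective tissue growth factor, was at 23.3, 32.9, 23.5 and 16.9 CPM against 6.16, 2.12, 4.28 and 3.16 CPM (log2 fold change 2.61 ± 0.32 (SE), adjusted p = 5.01e-05). Postn, the periostin of fibroblasts and keratinocytes, was at 367, 368, 243 and 359 CPM against 255, 172, 333 and 178 CPM (log2 fold change 0.51 ± 0.26 (SE), adjusted p = 0.188). Tnc was at 71.5, 39, 51.8 and 50.5 CPM against 38.3, 71, 67.5 and 65.1 CPM (log2 fold change -0.18 ± 0.27 (SE), adjusted p = 0.702), both overlapping. Of 14 matrix metalloproteinases and their inhibitors, 5 were higher. Timp1 stood at 42, 65, 43.5 and 22.1 CPM on the AhR-poor diet and 2.09, 1.54, 1.63 and 1.14 CPM on the I3C diet (log2 fold change 4.75 ± 0.27 (SE), adjusted p = 4.21e-08). In vehicle libraries its means were 0.365 and 0.0971 CPM. Mmp2 was at 39.2, 56.8, 46.7 and 42.2 CPM against 32.5, 21.1, 28.5 and 25.5 CPM (log2 fold change 0.78 ± 0.12 (SE), adjusted p = 0.000138), under the minimum fold, and Mmp3 at 75.5, 49.8, 62.7 and 34.3 CPM against 40.4, 63.2, 43.6 and 41.6 CPM (log2 fold change 0.23 ± 0.33 (SE), adjusted p = 0.691).

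The markers of cells that lie under the epidermis moved with the matrix genes. Fibroblast markers were higher in 10 of 14, and their summed level ran from 853 to 1146 CPM on the AhR-poor diet and from 639.6 to 679.8 CPM on the I3C diet. Such a sum follows the members of highest level, which need not be those called. The median log2 fold change of the list was 5.14 (3.63 with genes at the floor set to their bound), with members from -0.14 to 8.22. Pdgfra, the defining fibroblast receptor, stood at 20.8, 27.8, 27.5 and 11.1 CPM on the AhR-poor diet and 0.487, 0.289, 0.0856 and 0.0746 CPM on the I3C diet (log2 fold change 6.51 ± 0.50 (SE), adjusted p = 6.18e-07). Pi16, of adventitial fibroblasts, was at 27, 47.5, 33 and 17.7 CPM against 0.122, 0.16, 0.0285 and 0.0995 CPM (log2 fold change 8.22 ± 0.43 (SE), adjusted p = 4.21e-08). Endothelial markers were higher in 15 of 16, with a summed level from 62.8 to 137 CPM on the AhR-poor diet and from 8.68 to 9.59 CPM on the I3C diet. Cdh5, the cadherin of endothelial junctions, was at 9.68, 14.5, 5.97 and 7.18 CPM against 0.317, 0.321, 0.0285 and 0.174 CPM (log2 fold change 5.46 ± 0.48 (SE), adjusted p = 1.04e-06). Adhesion molecules that endothelium uses to bind leukocytes were higher in 4 of 5, with Sele, E-selectin, at 8.2, 7.95, 2.99 and 4.22 CPM and I3C libraries at the floor (at least 70.9-fold higher, adjusted p = 4.54e-07). Icam1, also made by keratinocytes, was at 291, 252, 295 and 214 CPM against 209, 229.7, 244 and 232 CPM (log2 fold change 0.20 ± 0.32 (SE), adjusted p = 0.736). Pericyte and smooth muscle markers were higher in 4 of 10, and 1 was lower at an adjusted p below 0.01 without a minimum fold. Their log2 fold changes ran from -0.71 to 5.63, with a median of 0.28. The summed level, which follows the members of highest level, ran the other way, from 231 to 271 CPM on the AhR-poor diet and from 329 to 396 CPM on the I3C diet. Acta2, the smooth muscle actin, was at 17.4, 17.9, 20.5 and 20.3 CPM against 16.1, 14.4, 7.79 and 20.6 CPM (log2 fold change 0.37 ± 0.32 (SE), adjusted p = 0.479).

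Markers of fat, muscle and blood were higher too. Adipocyte markers were higher in 5 of 7, with a summed level from 22.1 to 33.2 CPM on the AhR-poor diet and from 8.68 to 10.6 CPM on the I3C diet. The defining adipocyte genes Adipoq, Plin1 and Cfd were under the count minimum and not tested. Fabp4, the fatty acid binding protein of adipocytes and capillaries, was at 3.27, 4.06, 2.64 and 1.17 CPM and at 0 in all I3C libraries (at least 33.8-fold higher, adjusted p = 5.65e-06). Skeletal muscle markers were higher in 6 of 7, with a summed level from 1.41 to 30.0 CPM on the AhR-poor diet and from 0.298 to 0.514 CPM on the I3C diet, where T104 and T107 were above T105 and T112. Globin and red cell genes were higher in 5 of 5. Their summed level ran from 267 to 1254 CPM on the AhR-poor diet and from 0.4 to 17.2 CPM on the I3C diet, with T105 at the top and, among the I3C libraries, T106 at the top. The beta globin Hbb-bs, whose reads could be split with its near-identical copy Hbb-bt, was at 265, 753, 319 and 155 CPM against 9.62, 1.92, 0.0571 and 0.174 CPM (log2 fold change 6.95 ± 1.01 (SE), adjusted p = 0.000332). Whether leukocytes, stromal cells or blood contributed to the differences of the signals above was not tested. Schwann cell markers were higher in 1 of 7 (1 lower at an adjusted p below 0.01 without a minimum fold) and of the sweat gland markers none of 6 was called by edgeR or DESeq2 (2 at an unadjusted p below 0.05). Their summed levels ran from 60.6 to 64.4 CPM on the AhR-poor diet and from 71.2 to 93.9 CPM on the I3C diet for Schwann cells, and from 14.6 to 15.1 CPM on the AhR-poor diet and from 12.9 to 18.3 CPM on the I3C diet for sweat glands. Melanocyte markers were higher in 5 of 6, led by Dct, a pigment enzyme, at 4.26, 2.64, 1.69 and 1.85 CPM against 0.609, 0.224, 0.599 and 0.323 CPM (log2 fold change 2.56 ± 0.33 (SE), adjusted p = 1.88e-05).

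**Figure D4:**
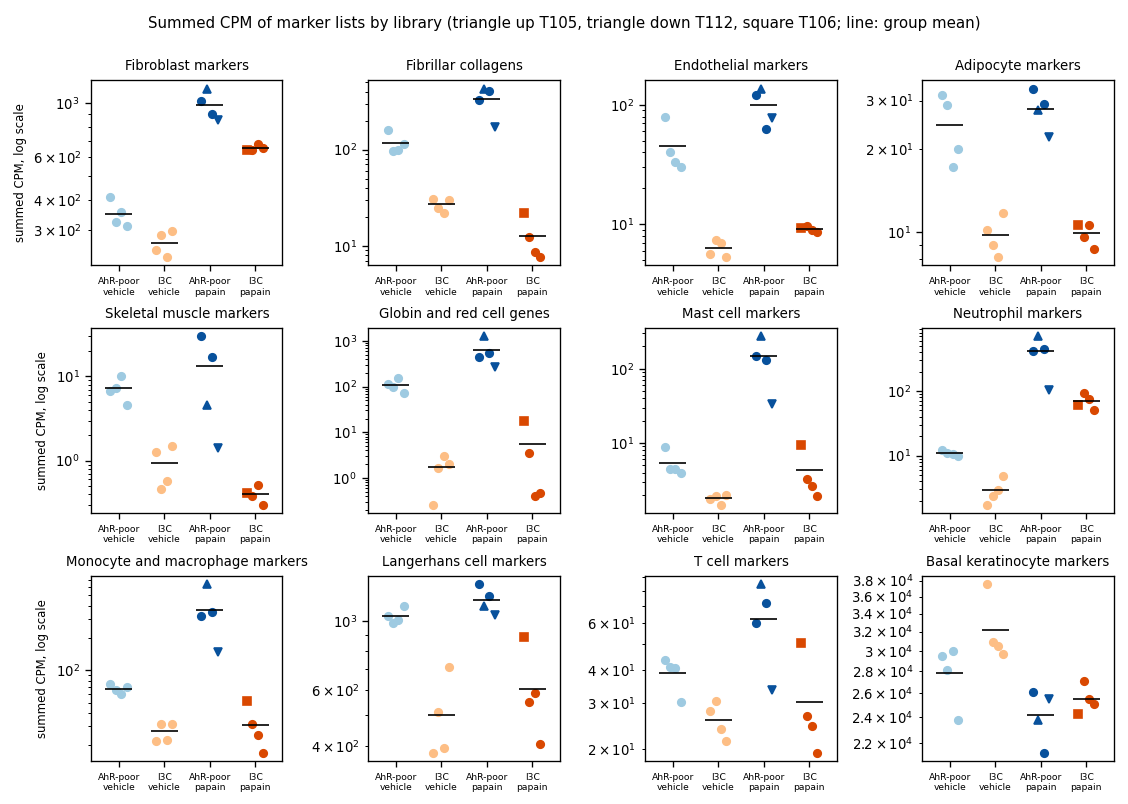
Summed CPM of 12 gene lists in each of the 16 libraries (vertical axis, log scale), by diet and injection (horizontal axis), with a line at the mean of each group of 4. With papain, the lists of fibroblasts, fibrillar collagens, endothelium, adipocytes, muscle, red cells, mast cells, neutrophils, macrophages and Langerhans cells separate by diet, T112 is the lowest AhR-poor library in most of them, and T cell and basal keratinocyte sums overlap.

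TGF-beta genes were examined because the cytokine acts on keratinocytes, fibroblasts and Langerhans cells. Of 14 genes for ligands, receptors, activation and targets, 1 was higher, and the median log2 fold change was -0.13. Tgfb3 stood at 6.08, 3.26, 3.12 and 4.13 CPM on the AhR-poor diet and 2.34, 1.22, 1.28 and 1.04 CPM on the I3C diet (log2 fold change 1.49 ± 0.31 (SE), adjusted p = 0.00226), a call that was lost without T115 (adjusted p = 0.0107). Tgfb1 was at 53.1, 53.2, 46.1 and 41.8 CPM against 30.3, 30.2, 30.7 and 26.4 CPM (log2 fold change 0.72 ± 0.12 (SE), adjusted p = 0.000165). Its groups did not overlap and its fold was under the minimum. With vehicle, Tgfb1 had means of 40.6 and 42.5 CPM, and the difference between papain and vehicle passed its test (adjusted p = 0.0409). Neither Itgb8 nor Itgb6, integrin chains that activate the latent cytokine at the cell surface, was called. Itgb8 was at 11.6, 8.12, 7.36 and 8.78 CPM against 6.21, 4.55, 6.34 and 4.87 CPM (log2 fold change 0.71 ± 0.21 (SE), adjusted p = 0.0219). All AhR-poor libraries of Itgb8 lay above all I3C libraries. Itgb6 was at 17.4, 9.01, 14.8 and 15.5 CPM against 11.9, 26.9, 16.5 and 24.5 CPM (log2 fold change -0.49 ± 0.31 (SE), adjusted p = 0.305), with overlapping groups. Among paracrine growth factors of fibroblasts and vessels, 7 of 12 were higher, and of the insulin-like growth factor genes 4 of 9. Fgf7, a fibroblast factor for keratinocytes, was at 0.911, 1.48, 1.08 and 0.68 CPM with I3C libraries at the floor (at least 12.6-fold higher, adjusted p = 3.81e-06). Igfbp5 was at 47.5, 50.5, 32.9 and 29.8 CPM against 4.41, 3.85, 1.28 and 1.24 CPM (log2 fold change 3.90 ± 0.42 (SE), adjusted p = 2.00e-05). The leptin receptor Lepr was at 0.813, 1.04, 0.692 and 0.707 CPM against 0.219, 0.0962, 0.0285 and 0.149 CPM (log2 fold change 2.66 ± 0.51 (SE), adjusted p = 0.000792), while Lep was at 0.492, 0.133, 0.0866 and 0.109 CPM against 0.195, 0.128, 0 and 0.149 CPM (log2 fold change 0.80 ± 0.75 (SE), adjusted p = 0.503).

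Genes of general cell programmes were not called. Of 19 cell cycle genes, none was called by edgeR or DESeq2 and none reached an unadjusted p of 0.05, with Mki67, the proliferation marker, at 153, 144, 106.04 and 131 CPM against 151, 202, 122 and 152 CPM (log2 fold change -0.23 ± 0.14 (SE), adjusted p = 0.292). None of 16 clock genes was called by either tool, with 3 at an unadjusted p below 0.05. Without a minimum fold, 1 clock gene was higher and 1 lower at an adjusted p below 0.01. None of 14 immediate early and heat shock genes was called by either tool, with 4 at an unadjusted p below 0.05, and Fos was at 2974, 3254, 3309.7 and 2884 CPM against 3162, 3140.5, 3350.4 and 3286 CPM (log2 fold change -0.06 ± 0.13 (SE), adjusted p = 0.811). Hypoxia and glycolysis genes gave none of 14 by either tool, although 8 were lower at an unadjusted p below 0.05, with a median log2 fold change of -0.32. Without a minimum fold, 1 of the 14 was lower at an adjusted p below 0.01. Mitochondrially encoded genes gave none of 13 by either tool and none at an unadjusted p below 0.05, and their summed level ran from 15418 to 17046 CPM on the AhR-poor diet and from 15551 to 18442 CPM on the I3C diet.

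The diet difference with papain was compared with that under vehicle in the same fit. With vehicle, 352 genes were called higher, 1.59% of all genes tested, and none was lower (784 were lower at an unadjusted p below 0.05, and DESeq2 called 6 lower). Of the 1583 genes, 335 were called with vehicle as well. The other 1248 were called with papain only, yet in 1172 of them the vehicle libraries also leaned towards the AhR-poor diet. Over all genes tested, the median log2 fold change with vehicle was -0.01. In 51 of the 1248 the difference between papain and vehicle passed its test at an adjusted p below 0.05. A missing call with vehicle is thus not the same as a missing diet difference. The mean of the AhR-poor papain libraries lay above that of the AhR-poor vehicle libraries in 1342 of the 1583 genes, and the mean of the I3C papain libraries above that of the I3C vehicle libraries in 698. The 1583 genes were chosen by the same papain means, which favours such an order, and shares over all genes were not computed. In 660 genes the AhR-poor mean was above and the I3C mean below its vehicle. The marker sums showed both forms. Fibrillar collagens ran with vehicle from 96.8 to 158 CPM on the AhR-poor diet and from 21.8 to 31 CPM on the I3C diet. The sum of globin genes ran with vehicle from 73.2 to 155 CPM on the AhR-poor diet and from 0.258 to 3.05 CPM on the I3C diet. Neutrophil markers ran from 10.003 to 12.3 CPM on the AhR-poor diet and from 1.72 to 4.83 CPM on the I3C diet, and Langerhans cell markers from 985 to 1117 CPM on the AhR-poor diet and from 379.9 to 712 CPM on the I3C diet. Neutrophil sums were thus lower in every vehicle library than in any papain library. The sums of all 4 lists were apart between diets with either injection.

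**Figure D5:**
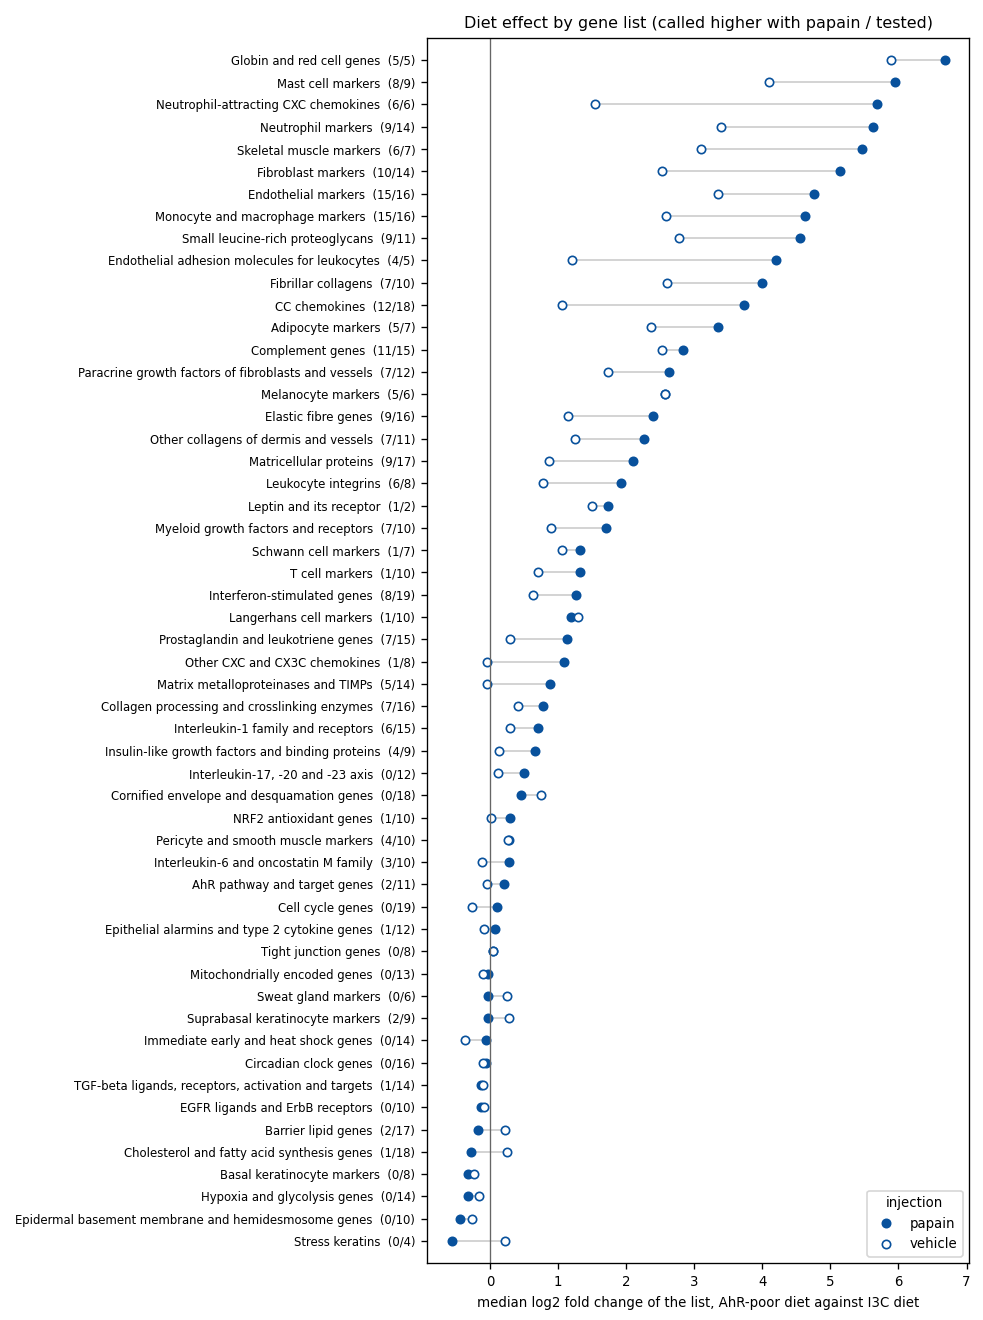
Median log2 fold change of the AhR-poor against the I3C diet for 54 gene lists (horizontal axis), with papain (filled) and with vehicle (open), and the number of genes called higher with papain out of those tested beside each name. The widest gaps between papain and vehicle are seen for chemokine and endothelial adhesion lists, while melanocyte, Langerhans cell and tight junction lists lie at nearly the same median with both injections.

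The test of the difference itself called 73 genes at an adjusted p below 0.05, 0.329% of all genes tested, and 2987 genes had an unadjusted p below 0.05. In 69 of the 73 the diet difference was more positive with papain, and 58 were called higher with papain. Sulf1, an enzyme that edits heparan sulfate, stood at 6.92, 9.37, 6.75 and 3.43 CPM on the AhR-poor diet and 0.633, 0.738, 0.485 and 0.522 CPM on the I3C diet (log2 fold change 3.48 ± 0.31 (SE), adjusted p = 6.32e-07), with vehicle means of 4.41 and 4.2 CPM and a difference of 3.41 ± 0.41 (SE) on the log2 scale (adjusted p = 0.00127). The AhR-poor papain mean lay above and the I3C papain mean below its vehicle mean. Akap12, a scaffold of kinase A, was at 6.77, 7.81, 4.46 and 3.21 CPM against 0.414, 0.481, 0.343 and 0.348 CPM with vehicle means of 1.28 and 0.731 CPM (adjusted p of the difference = 0.00305). Efemp1, a fibulin, was at 12.1, 16, 12.9 and 10.3 CPM against 4.73, 3.88, 4.62 and 5.35 CPM with vehicle means of 31.8 and 36.1 CPM (adjusted p of the difference = 0.00127). Glul, glutamine synthetase, was at 77.1, 82.2, 81.1 and 64.2 CPM against 52.8, 36.6, 35.4 and 35.6 CPM with vehicle means of 165 and 225 CPM (adjusted p of the difference = 0.00439). In 51 of the 73 genes the AhR-poor papain mean was above and the I3C papain mean below its vehicle mean, and in 13 both papain means were below. The 73 genes were chosen by a test of the same means, which favours the first order. The number of genes depended on single libraries, from 10 without T108 to 422 without T106.

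The 22 genes called lower were at low levels. Of these, 10 are protein coding, and for 21 the groups did not overlap, which the call itself favours. The gene with the largest fall among those with a mean of at least 1 CPM was Nt5c1a, a cytosolic nucleotidase, at 1.55, 1.33, 1.9 and 1.11 CPM on the AhR-poor diet and 2.61, 6.8, 4.62 and 4.48 CPM on the I3C diet (log2 fold change -1.66 ± 0.35 (SE), adjusted p = 0.00249). With vehicle its means were 0.0707 and 0.0716 CPM, and its call was lost without T113 (adjusted p = 0.0131). Slit1, an axon guidance ligand, was at 2.83, 3.38, 2.73 and 3.32 CPM against 5.07, 11, 9.36 and 6.27 CPM (log2 fold change -1.36 ± 0.26 (SE), adjusted p = 0.000979). Pla2g4d, an epidermal phospholipase A2, was at 1.6, 1.1, 1.13 and 1.31 CPM against 2.39, 3.01, 4.34 and 2.06 CPM (log2 fold change -1.19 ± 0.23 (SE), adjusted p = 0.000888). B4galnt3, a glycosyltransferase, was the highest of the 22 in level, at 19.4, 23.1, 24.9 and 20.3 CPM against 34.9, 56.2, 43.2 and 43 CPM (log2 fold change -1.02 ± 0.22 (SE), adjusted p = 0.00361). Ikzf4, a zinc finger factor of the Ikaros family, was at 6.45, 6.73, 6.67 and 7.04 CPM against 11.6, 14.5, 13.5 and 15.9 CPM (log2 fold change -1.04 ± 0.19 (SE), adjusted p = 0.000564). Farp2, an exchange factor for small GTPases, was at 7.34, 9.09, 8.48 and 8.84 CPM against 13.9, 18.6, 16.8 and 18.8 CPM (log2 fold change -1.01 ± 0.16 (SE), adjusted p = 0.000189). T106 was the lowest I3C library for Nt5c1a, Slit1, B4galnt3, Ikzf4 and Farp2. B4galnt3 lost its call without T104, T112, T113 or T115, Farp2 without T104, T113 or T115, Ikzf4 without T115 and Pla2g4d without T114. Igf2bp1, whose groups overlapped, lost it in 14 of 16 such fits. The other protein-coding genes were Igf2bp1, Pde1c, Rsg1 and Hs3st3a1, with log2 fold changes of -1.20 ± 0.31, -1.19 ± 0.27, -1.02 ± 0.24 and -1.15 ± 0.24 (SE). The remaining 12 are non-coding RNAs, pseudogenes and unnamed transcripts, of which Gm8899 was at least 1.26-fold lower. Without T104 the number of genes called lower was 6, and without T106 it was 34.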

How the data were processed

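RNA from footpad epidermis was sequenced from stranded mRNA libraries. The submitters aligned the reads with STAR to mm10 and deposited a table of raw counts per gene for 16 libraries, with no normalization. The counting tool, its strand setting and the annotation release are not given in the sources used here, so values of overlapping or antisense genes and of near-identical copies are uncertain. Of 50600 gene identifiers, 50376 matched GENCODE M21 (GRCm38), from which symbols and positions were taken. Promoter windows came from RefSeq.

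Groups followed the labels, and all 16 libraries entered 1 fit. Genes with at least 10 counts summed over the libraries were kept (22155), TMM factors (0.937 to 1.07) were applied, and edgeR 4.0.16 in R 4.3.3 was used for quasi-likelihood tests of the diet difference with papain, with vehicle, and of the difference between them, with Benjamini-Hochberg adjustment over all genes tested. A call required a log2 fold change beyond 1 at an adjusted p below 0.01, and for the difference between injections an adjusted p below 0.05. DESeq2 1.42.0 served as an alternative. CPM values use the TMM-scaled totals. Errors are SD over 4 libraries or SE of the fit. Per the study's methods, each library is a biological replicate from 1 animal. A fold against I3C libraries that all held at most 3 counts is a lower bound, set against 3 counts per library. The scripts were tested on simulated data. Pairs of libraries of a group differed by more than sampling noise (chi-square per degree of freedom of at least 9.43), so none was counted as a duplicate. The sequencing unit of each library is not given in the sources used here, so no value within a batch could be computed.

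Members and gene lists were chosen with earlier results of these data known. Some items are not reported here. Named genes were the key members of each list, up to 4 called members per list by level, the 10 largest rises and falls with a mean of at least 1 CPM and no overlap between groups, all genes called lower, up to 10 genes by p in the test of the difference, genes behind counts of 5 or fewer, and the 5 genes of highest level in each direction. Alternatives were other scaling factors, filters, thresholds, DESeq2, a fit of only the 8 papain libraries and leaving out each library in turn.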

Additional observations from a re-analysis of the deposited data

Results flagged for a closer look

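Each group of 4 papain libraries was searched for a library that stood apart, for 208 genes and 54 summed lists. Of 504 groups tested, 26 held such a library, which is near the share of about 5% that chance flags. A single flag below can therefore be due to chance. On the AhR-poor diet, T112 was the low library for Mmp9 (7.23 CPM, others 22.8 to 25.6), Cpa3 (0.489 CPM, others 1.03 to 1.14), Ly6g (0.218 CPM, others 2.07 to 2.51), Ccl11 (2.94 CPM, others 5.81 to 6.58) and Csf2 (0.489 CPM, others 1.57 to 1.97). These are a gelatinase, a mast cell protease, a neutrophil surface marker, eotaxin and GM-CSF. T104 was low for Krt1 (4090 CPM, others 6344 to 6777), Dsc3 (1179 CPM, others 1444 to 1505), Il34 (28.9 CPM, others 43.9 to 45.1) and the unnamed transcript Gm44253 (0.32 CPM, others 0.588 to 0.649), and high for Il24 (33.6 CPM, others 14.9 to 16.5). T107 was low for Postn (243 CPM, others 359 to 368) and high for the sum of EGFR ligands and ErbB receptors (998 CPM, others 874 to 893).

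On the I3C diet, T106 was the library apart in most cases. It was low for Tnc (38.3 CPM, others 65.1 to 71.0), Col17a1 (3577 CPM, others 4443 to 4557), Osmr (82.9 CPM, others 101.98 to 106.18), Egfr (181 CPM, others 231 to 236), Hs3st3a1 (1.29 CPM, others 1.79 to 1.86), the summed alarmin and type 2 cytokine genes (759 CPM, others 940 to 981) and the summed EGFR and ErbB genes (1014 CPM, others 1152 to 1165). It was high for Cxcl12 (7.14 CPM, others 3.72 to 4.14), Glul (52.8 CPM, others 35.4 to 36.6) and Mcpt4 (0.0974 CPM, others at 0). In each of these T106 lay on the AhR-poor side of its own group. Among the others, T113 was high for Mmp3 (63.2 CPM, others 40.4 to 43.6) and for the summed metalloproteinases and TIMPs (392 CPM, others 281 to 291), T114 was low for Ccl20 (24.1 CPM, others 30.4 to 31.2), and T115 was low for Tgfb1 (26.4 CPM, others 30.2 to 30.7).

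For 14 named genes the diet difference with papain differed from that with vehicle by the interaction test of edgeR. The differences on the log2 scale were 3.98 for Dcn (adjusted p = 0.017), 3.46 for Dab2 (adjusted p = 0.013), 3.41 for Sulf1 (adjusted p = 0.0013), 3.01 for Akap12 (adjusted p = 0.0031), 2.75 for Medag, 2.47 for Cygb and 2.42 for Hmcn2 (adjusted p = 0.013 for each), 1.94 for Cxcl12 (adjusted p = 0.04), 1.65 for Efemp1 (adjusted p = 0.0013), 1.37 for both Glul and Col6a1 (adjusted p = 0.0044 and 0.01), 0.85 for Mmp2 (adjusted p = 0.04), 0.83 for Ltbp4 (adjusted p = 0.013) and 0.79 for Tgfb1 (adjusted p = 0.041). All 14 were more positive with papain.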

How the results depend on the processing

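The alternatives changed 1 choice at a time. Genes called higher numbered 1583, from 1254 without T115 to 1781 without T106, and 556 when 10 counts were asked for in every library, which removes genes absent on the I3C diet. Genes called lower numbered 22, from 6 without T104 to 34 without T106, and 11 with library size alone, 5 with 10 counts in every library, 70 at an adjusted p below 0.05 and 680 with no minimum fold. Genes with a difference between papain and vehicle numbered 73, from 10 without T108 to 422 without T106, with 223 without T100 and 346 without T112, and were 523 by DESeq2 and 4 at an adjusted p below 0.01. The cause was not tested. Library size alone moved the median over all genes to 0.11 on the log2 scale. Medians near 0 changed sign: sweat gland markers from -0.02 to 0.087 (library size alone) and 0.11 (10 counts in every library), and from -0.13 without T113 to 0.32 without T114, with 0.071 without T107, immediate early genes from -0.06 to 0.049 and mitochondrial genes from -0.02 to 0.085 (both library size alone). With 10 counts in every library, pericyte markers went from 0.28 to -0.18 and Schwann cell markers from 1.32 to -0.15. Only list medians that moved by at least their spread over the AhR-poor papain libraries were counted as changed in sign. No named gene called in the main or the alternative fit changed direction, and changes of sign in uncalled genes were not counted. Of the 208 named genes, which include genes without a call, 44 lost their call under at least 1 setting, 34 of them under a left-out library. Genes removed by a filter were not counted as lost. No paired analysis was possible because no group shares a replicate code with another. Genes under 3 counts per library (0.0569 to 0.130 CPM) were limited by depth.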
